A study of Mus musculus with 20 samples.

Results

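The core and linker histone genes of the mouse were examined in 20 RNA sequencing libraries of whole embryonic hearts, collected from embryos at E13.5. Members were chosen by symbol: every gene whose name starts with H1f, H2ac, H2bc, H3c or H4c followed by a digit, with pseudogenes left out. The annotation names 73 such genes, and 71 of them were analysed here, out of 48795 genes in the table. They lie on chromosomes 13 (52 genes, between positions 21899933 and 24118834), 3 (10), 11 (4), 6 (3) and 15 (2), and none is on chromosome 16. All positions are from the GENCODE vM39 annotation of GRCm39 unless another build is named. The hearts fall into 4 groups of 5: Dp3Tyb hearts, their wild-type (WT) littermates, Ts1Rhr hearts, and their own WT littermates. Dp3Tyb mice carry the allele Dp(16Mir802-Zbtb21)3TybEmcf and Ts1Rhr mice the allele Dp(16Cbr1-Fam3b)1Rhr, and in each of them a stretch of mouse chromosome 16 with counterparts on human chromosome 21 is present in an extra copy. The added stretch is shorter in Ts1Rhr. The labels give a heart defect for Ts1Rhr replicates 1 and 2 and none for replicates 3 to 5, and all 5 were kept as 1 group by genotype. The comparison of each strain with its littermates asks which transcripts differ in a heart with the extra copy, and the libraries were whole hearts, so fewer cells of a type and less RNA per cell cannot be told apart.

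Most histone genes are replication-dependent: they are transcribed in S phase, when new DNA has to be packed, and they have no introns. Their messenger RNAs are the only known animal messenger RNAs that normally end without a poly(A) tail. In its place they end a few bases after a conserved hairpin, which the stem-loop binding protein Slbp holds and which directs cleavage, translation and rapid decay when DNA synthesis stops. Replacement histones are made throughout the cell cycle from ordinary polyadenylated messenger RNAs, and the linker histones H1f0 (H1.0, abundant in cells that leave the cycle) and H1f10 (H1.10) belong to them. Some replication-dependent genes also give longer, polyadenylated transcripts that read past the hairpin. The libraries were made with a kit that captures poly(A) RNA, so a histone transcript without a tail is not what this chemistry collects.

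Reads per library ran from 6.60 to 19.6 M (mega), and the share of reads from genes encoded by the mitochondrial genome from 4.85 to 19.5%. In 7 libraries the share was over 10%. The 3 highest shares were 19.5% in WT replicate 5 of the Dp3Tyb cohort, 17.2% in WT replicate 4 of the Ts1Rhr cohort and 15.5% in Dp3Tyb replicate 5, at 6.60, 9.50 and 12.5 M reads. The libraries at 6.60 and 9.50 M were the shallowest of all, while WT replicate 1 of the Dp3Tyb cohort, at 12.2 M, had the lowest share. Heart tissue was plain in all libraries, with 2.31 to 3.41% of reads from 10 cardiomyocyte markers. Erythroid markers took 0.184 to 1.69% of reads, with group means of 0.395% (WT of the Dp3Tyb cohort), 0.424% (Dp3Tyb), 0.902% (WT of the Ts1Rhr cohort) and 1.003% (Ts1Rhr). Of 25 symbols of RNAs made without a tail, such as the RNA components of RNase P and telomerase, 14 were in the table, and together they had 0 to 17 reads per library. By these means the erythroid share differed more between the cohorts than between a strain and its littermates. Against littermates, 10 of 11 erythroid markers in Dp3Tyb and 11 of 11 in Ts1Rhr still had log2 fold changes above 0, with 0 called in each. The part of either difference in the results was not tested.

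The hairpin was read from the genome for the members that the results turn on. It was searched on the coding strand as a run of GGCNCT, the loop TTTC and AGNGCC within 150 bases after the stop codon, and 48 of 71 members hold it, 40 of them as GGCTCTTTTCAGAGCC and 8 as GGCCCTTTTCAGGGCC. In the lines that follow the hairpin is in capitals with 5 bases on each side, 5′ to 3′ on the coding strand. These 6 are shown because they are replication-dependent genes and 5 of them passed the filter on low values in this poly(A) RNA, while H2ac23 is the near-identical copy of H2ac24.
H1f2: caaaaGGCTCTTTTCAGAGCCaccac
H2ac24: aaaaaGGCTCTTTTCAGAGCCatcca
H2ac23: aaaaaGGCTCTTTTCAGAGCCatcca
H2ac25: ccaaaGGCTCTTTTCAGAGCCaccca
H2bc4: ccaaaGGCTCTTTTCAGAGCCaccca
H2bc27: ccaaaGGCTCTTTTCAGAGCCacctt
The windows are chr13:23923490-23923515 (plus strand, H1f2), chr13:22017194-22017219 (minus, H2ac24), chr13:21995063-21995088 (plus, H2ac23), chr11:58845993-58846018 (plus, H2ac25), chr13:23868625-23868650 (plus, H2bc4) and chr11:58840170-58840195 (plus, H2bc27). The hairpin is the same in all 6, and only the flanking bases differ. The windows of H2ac24 and H2ac23 are identical, as are those of H2ac25 and H2bc4. What differs is how far the annotated gene goes on past the hairpin. That is 3 bases for H2ac24, 31 for H2ac23, 171 for H2bc27, 840 for H1f2, 1643 for H2ac25 and 9518, introns included, for H2bc4. Other members with the hairpin went both ways. H2bc23 (3134, counted in the same way) and H2bc6 (2919) passed the filter, and H1f3 (4884) and H4c16 (2445) did not. H2ac18 and H2ac19 (35 each) and H2ac11 (23) passed with short stretches.

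Histone genes were a small and uneven part of these libraries. They took 358 to 511 of every M reads, with group means of 439 ± 47.7 (WT of the Dp3Tyb cohort), 417 ± 30.7 (Dp3Tyb), 458 ± 30.7 (WT of the Ts1Rhr cohort) and 413 ± 24.3 (Ts1Rhr; SD, n = 5 each). Levels below are normalised read counts: whole reads of a gene divided by the size factor of the library, on a linear scale and not per length unless said. On this scale 54 of 71 members had a mean over all libraries under 5, and the median member had 1.63. H2ac1 and H2bc1 had no read in any library, and a library held reads of 26 to 55 members. The H1 class, the linker histones that sit on the DNA between nucleosomes, held 62.5% of the summed mean value with 11 genes. H2A held 29.0% (18 genes), H2B 7.21% (17), H4 0.934% (13) and H3 0.344% (12), although a nucleosome has equal numbers of the 4 core histones. Most of this came from 3 genes, as H1f0, H2ac24 and H1f10 held 80.5 to 85.6% of all histone value in each library.

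**Figure D1:**
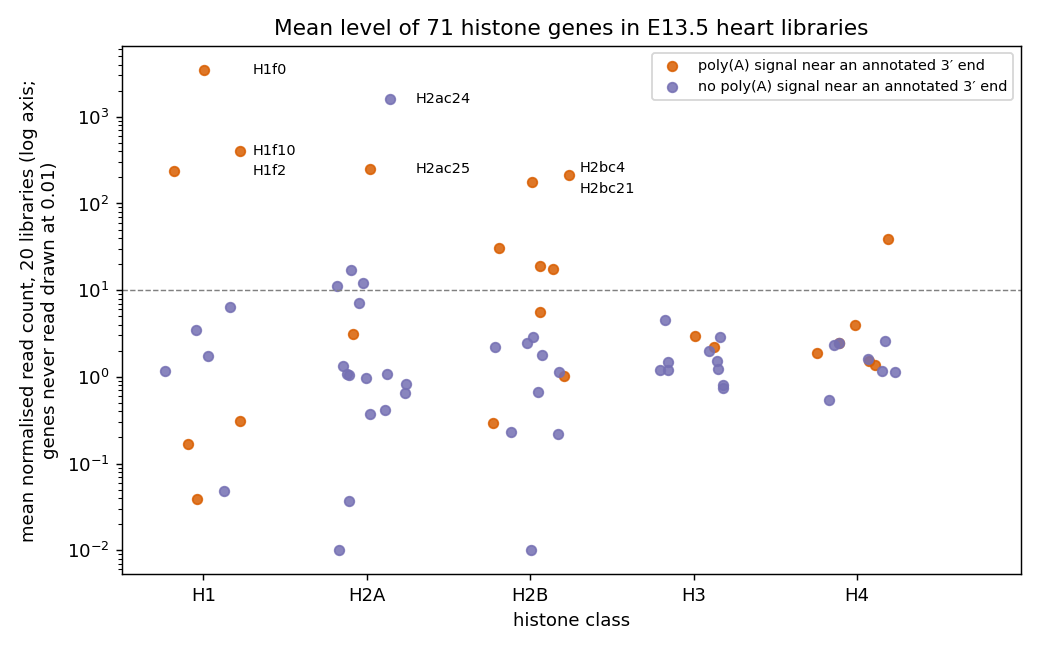
Mean normalised read count over 20 libraries (vertical, log axis) of each of 71 histone genes by class (horizontal); genes never read sit at the bottom, colours give whether an annotated transcript end has a poly(A) signal, the horizontal spread is only for legibility, and the dashed line is the minimum value of 10 that the tests used. H1f0 and H2ac24 stand above all others at 3468 and 1611, and all 12 H3 genes lie under the line.

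Of the H1 genes 3 of 11 passed the filter of the tests, 5 or more libraries at 10 or above. H1f0 (chr15:78912650-78914704, plus strand) was the highest histone gene in every library at a mean of 3468, which is 52.5% of the value of all members. H1f10 (chr6:87957403-87958619, minus strand) had a mean of 404, between 327 and 468. The highest replication-dependent linker histone was H1f2 (chr13:23922791-23924350, plus strand), at a mean of 239 and between 109 and 311. Its lowest value, 109, was in the library with the highest mitochondrial share. H1f4 had a mean of 6.46 and H1f3 of 3.50, so the 3 linker histones above them exceeded every other H1 gene by a wide margin. Per kilobase of the longest annotated transcript the levels were 1688 for H1f0, 332 for H1f10 and 153 for H1f2.

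H2ac24 (chr13:22017196-22017677, minus strand) dominated the H2A genes, whose products form a dimer with H2B in the nucleosome. Its mean was 1611, or 80.5 to 87.8% of the H2A value in each library, and per kilobase it was the highest member of all at 3342. In WT hearts of the Dp3Tyb cohort it was at 1456, 1421, 1413, 1701 and 1856 (replicates 1 to 5), and in Dp3Tyb hearts at 1299, 1339.6, 1399, 1384 and 1808. In WT hearts of the Ts1Rhr cohort it was at 1862, 1941, 1507, 2603 and 1451, and in Ts1Rhr hearts at 1775, 1873, 1763, 1228.5 and 1142. The groups overlap, and in each of the 4 groups the highest value was in the library with the highest mitochondrial share of that group. H2ac24 has a near-identical copy: 92.6% of its 75-base words are also in H2ac23, so reads can be apportioned between them in different ways and its level is uncertain to that extent.

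H2ac25 (chr11:58845511-58847656, plus strand) was next at a mean of 248 and between 214 and 310, and 70.4% of its 75-base words lie in Trim17, which it overlaps on the same strand, so its level is uncertain too. H2ac18 (mean 17.1) and H2ac19 (12.2) share 88.9 and 100% of their words with the gene model Gm20634. H2ac11, at a mean of 7.11, passed the filter in the fits of both cohorts together and in neither cohort's own fit. H2ac23 had a mean of 11.05 and did not pass. The other 12 H2A genes had means under 5.

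The H2B genes were more even than the H2A genes, and 5 of 17 passed the filter. H2bc4 (chr13:23867631-23878163, plus strand) led at a mean of 215 and between 140.1 and 305, and held 45.1% of the class. H2bc21 (chr3:96128435-96131054, plus strand) had a mean of 176 and between 138 and 299, and it has no hairpin. H2bc27 (chr11:58838848-58840361, plus strand) was at 30.3, H2bc6 at 19.0 and H2bc23 at 17.6. Of these 5 genes only H2bc23 shares most of its words with another member, 96.5% with H2bc24, which had a mean of 5.52.

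H3 and H4 together form the tetramer at the centre of the nucleosome, and their genes were near 0 in these libraries. None of 12 H3 genes passed the filter. H3c3 was the highest at a mean of 4.48, followed by H3c14 at 2.94, H3c15 at 2.89, H3c4 at 2.19 and H3c6 at 2.01. H4c9 (chr13:22224806-22225532, minus strand) was the single H4 gene to pass, at a mean of 38.7 and between 14.7 and 57.4. The next were H4c8 at 3.96, H4c4 at 2.58, and H4c17 and H4c11 at 2.43 each. The replacement variants of H3, which are polyadenylated and outside the rule, were at 6612 (H3f3a) and 5474 (H3f3b) in the same libraries. Over all classes the 57 members under the filter together held 0.907 to 2.09% of the histone value of a library. Each of them had at most 46 reads in any library, and they did not enter the filtered fits.

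**Figure D2:**
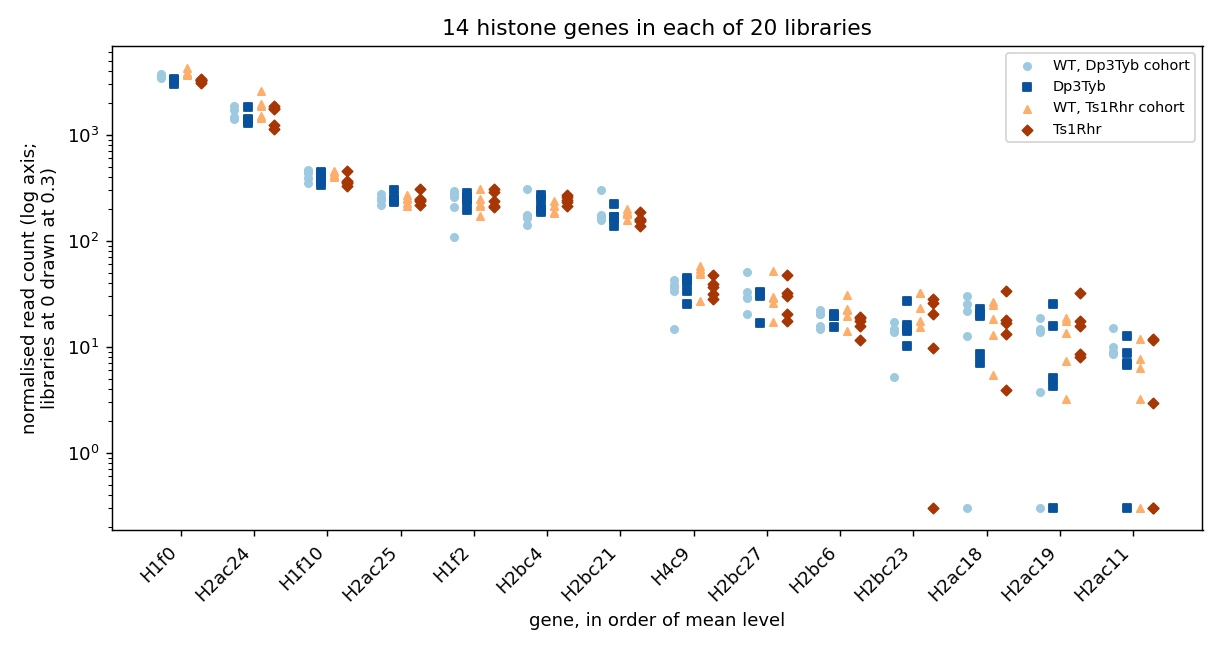
Normalised read count (vertical, log axis) of the 14 histone genes that passed the filter over 20 libraries, in order of mean level, with 1 point per library and 1 column of points per group (n = 5 each); libraries at 0 sit at the bottom. H1f0 spans 3007 to 4254 while H2ac18, H2ac19, H2ac11 and H2bc23 each reach 0 in at least 1 library.

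A poly(A) signal was counted as AATAAA or ATTAAA in the last 40 bases of an annotated transcript, on the coding strand. It was present in 24 of 71 members, against 83.3% of 21770 protein-coding genes. Of the 24 members with a signal 10 passed the filter (41.7%) and their median mean was 3.54, whereas of the 47 without 4 passed (8.51%) and the median was 1.21. The filter and these means are not per length. Per kilobase of the longest annotated transcript the medians stood closer, at 3.78 with a signal and 2.41 without. The hairpin went far less with passing the filter: 10 of 48 members with it (20.8%) and 4 of 23 without it (17.4%) passed. Their medians per kilobase were 2.73 and 2.13. The hairpin letters are otherwise rare, in an annotated transcript of 37 of 21770 protein-coding genes (0.170%), of which 32 are members.

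Members with neither feature were all under the filter (0 of 12), and members with both passed most often (6 of 13). H1f0, H1f10, H2bc21 and H4c9 are the 4 of 11 that passed with a signal and no hairpin. The 4 that passed with a hairpin and no signal were H2ac24, H2ac18, H2ac19 and H2ac11, out of 35, and each of them shares between 77.6 and 100% of its words with other genes. A match or its lack is a description of these letters in this annotation. Over all members 29 share at least 50% of their 75-base words with another gene, of which 6 passed, and 11 share none, of which H1f0, H1f10 and H2bc21 passed. Exons of 35 of 71 members overlap another annotated gene, and so do those of 9 of the 14 that passed, each with at least 1 gene on the opposite strand. H1f0 overlaps the gene model Gm49544 in this way and H2bc4 overlaps H2ac6. Whether counting used strand is not given in the sources used here, so reads of such partners may not have been told apart.

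Many H2A and H2B genes are arranged head to head and share the stretch between their starts as a promoter. There were 14 pairs of members on opposite strands with starts at most 400 bases apart. In 12 of them, all an H2A with an H2B gene, a stretch of 176 to 306 bases lies between the annotated starts. In the other 2 pairs, H2bc4 with H2ac6 and H3c3 with H2bc3, the annotated genes overlap at their starts. Among the 12 there was no pair in which both genes passed the filter, in 5 a single gene did, and in 7 neither did. The most unequal were H2ac24 at 1611 with H2bc24 at 5.52, H2ac25 at 248 with H2bc26 at 0.233, and H2bc21 at 176 with H2ac20 at 0.368. In each of these 3 pairs the first gene was higher in 20 of 20 libraries. Per kilobase they stood at 3342 and 2.49, 115 and 0.610, and 67.2 and 0.707. In 8 of the other pairs the means stood in ratios of 1.05 to 3.77, and H2ac1 and H2bc1, the last pair, were never read. Of the overlapping pairs H2bc4 was at 215 and H2ac6 at 1.04.

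Promoter windows of the pairs H2ac24/H2bc24 and H2bc21/H2ac20 are printed because each pair joins a gene that was high and a gene that was near 0. They run from 250 bases before to 50 after the start of H2ac24 and of H2ac20, from RefSeq on GRCm38.p6, chr13:21833426-21833725 (minus strand, H2ac24) and chr3:96220831-96221130 (minus strand, H2ac20). For H2ac24 the last 50 bases begin at the start codon. The windows thus hold transcribed bases and need not span the whole stretch between the annotated starts. Capitals mark, on either strand, the octamer ATTTGCAT (the site of POU factors and a classic element of H2B promoters), TATAAA and CCAAT.
H2ac24: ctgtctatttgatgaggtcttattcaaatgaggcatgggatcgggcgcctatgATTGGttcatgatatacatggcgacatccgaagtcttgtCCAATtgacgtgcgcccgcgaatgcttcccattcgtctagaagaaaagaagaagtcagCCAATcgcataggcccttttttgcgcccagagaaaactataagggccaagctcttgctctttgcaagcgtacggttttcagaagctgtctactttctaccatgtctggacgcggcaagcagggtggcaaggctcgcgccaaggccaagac
H2ac20: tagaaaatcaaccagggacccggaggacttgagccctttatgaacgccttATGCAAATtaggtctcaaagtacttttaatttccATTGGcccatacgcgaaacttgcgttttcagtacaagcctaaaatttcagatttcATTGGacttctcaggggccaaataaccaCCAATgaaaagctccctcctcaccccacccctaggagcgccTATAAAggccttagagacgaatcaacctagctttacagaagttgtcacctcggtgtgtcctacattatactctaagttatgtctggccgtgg
Both windows hold 3 CCAAT boxes. The window of H2ac20 also holds the octamer and TATAAA, and that of H2ac24 holds neither. RefSeq promoters were at hand for 60 members (61 promoters). The octamer was in 12 of 61 (19.7%), 6 of 17 H2A and 6 of 13 H2B promoters and no H1, H3 or H4 promoter, against 1.74% of all 32851 promoters. Promoters of head-to-head genes overlap, so the same site can be counted in both. That is so for the octamer of H2ac1/H2bc1, H2ac8/H2bc8 and H2ac12/H2bc12. TATAAA was in 34 of 61 (55.7%) against 13.6%, and CCAAT in 50 of 61 (82.0%) against 37.4%. All H2A, H2B and H3 promoters held a CCAAT box and 3 of 11 H4 promoters did. None of the 3 motifs contains another, but a CCAAT box can run into an octamer.

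Each strain was compared with its littermates by limma on log2(value + 1), with p-values adjusted over all genes tested. No member passed an adjusted p of 0.05 in Dp3Tyb (0 of 13, where 0.0542% of all 14763 genes were called) or in Ts1Rhr (0 of 13, against 0.0269% of 14867). At an unadjusted p under 0.05 there were 1 member in Dp3Tyb (413 of 14763 genes) and 2 in Ts1Rhr (821 of 14867 genes), and edgeR called 0 members in either strain (0.0610% and 0.0269% of genes). DESeq2 called 0 in Dp3Tyb (0.230%) and 1 in Ts1Rhr (0.168%). The members' median log2 fold change was 0.02 in Dp3Tyb (7 higher and 6 lower) beside −0.0027 for all genes, and −0.18 in Ts1Rhr (4 higher and 9 lower) beside −0.0016. The difference between the strains' changes was called for 0 of 14 members (0.0130% of 15348 genes), with 0 members at an unadjusted p under 0.05 (234 of 15348 genes) and 0 calls by edgeR (0.0130%) and DESeq2 (0.0195%).

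H1f0 was the member that separated most from its littermates. Its normalised read count was 3546, 3435, 3709, 3525 and 3535 in WT hearts of the Dp3Tyb cohort, and 3007, 3294, 3368, 3283 and 3207 in Dp3Tyb hearts. Every Dp3Tyb heart was below every WT littermate. In the other cohort it was 3848, 3783, 3693, 3654 and 4254 in WT hearts, and 3096, 3374, 3261, 3231 and 3261 in Ts1Rhr hearts, again with no overlap. Means were 3549.8 ± 99.3 and 3232 ± 138 in the Dp3Tyb cohort, and 3846 ± 240.2 and 3245 ± 99.3 in the Ts1Rhr cohort (SD, n = 5 each), which is a ratio of 0.910 in Dp3Tyb and 0.843 in Ts1Rhr.

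The log2 fold change of H1f0 was −0.14 ± 0.05 (SE) in Dp3Tyb, with an unadjusted p of 0.029 and an adjusted p of 1.0 by limma, and −0.24 ± 0.06 in Ts1Rhr, with an unadjusted p of 0.0012 and an adjusted p of 0.639. DESeq2 on whole reads, at −0.25, gave an adjusted p of 0.0126 for H1f0 in Ts1Rhr (0.168% of genes called), and edgeR 0.638. Over all alternatives the adjusted p ran between 0.183 and 1.0 for Dp3Tyb and between 0.0126 and 0.996 for Ts1Rhr. The changes in the 2 strains differed by 0.11 ± 0.07 (SE), with an unadjusted limma p of 0.143. In a test of any difference among the 4 groups H1f0 had F = 11.4 and an adjusted p of 0.0693 (limma, 0 of 14 members called, 0.195% of genes), over alternatives from 1.43e-06 to 0.151. H1f0 passed there with DESeq2 (0.906% of genes), with a correction for transcript length (0.177%) and with the mitochondrial share as a covariate (1.52%), and edgeR called 0 members (0.195%). H1f0 was the only member whose groups did not overlap, and it was lower in both strains. Of all genes tested 0.474% were lower without overlap in Dp3Tyb and 0.498% in Ts1Rhr, and 0.501 and 0.619% were higher. The members' count was 1 of 13 in each strain. The WT groups differed from each other as well, by a ratio of 1.08, about as far as Dp3Tyb lay from its own littermates.

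**Figure D3:**
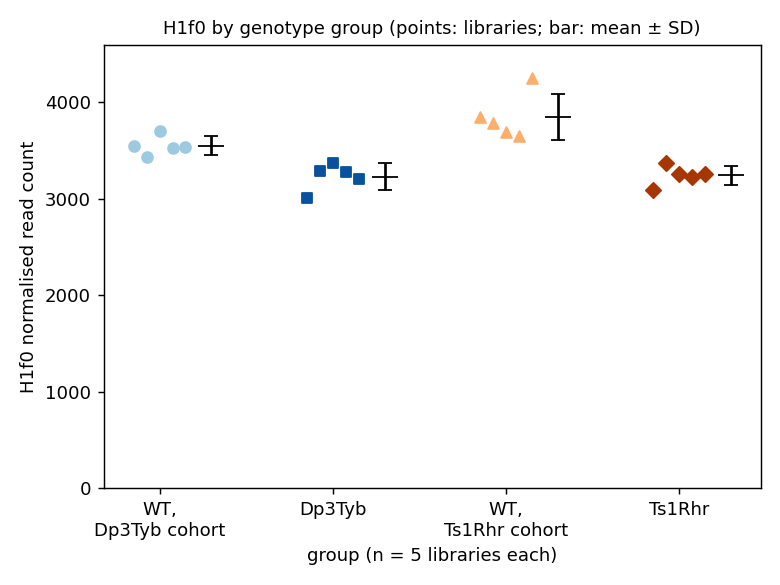
Normalised read count of H1f0 (vertical, linear axis from 0) in each library of 4 groups (horizontal, n = 5 each), with mean ± SD beside the points. All Dp3Tyb and Ts1Rhr libraries lie between 3007 and 3374, and the WT libraries between 3435 and 4254.

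The other linker histones did not separate by genotype. H1f10 was 418, 408, 403, 442 and 452 in WT hearts of the Ts1Rhr cohort and 327, 351, 458, 361 and 367 in Ts1Rhr hearts, with 1 Ts1Rhr heart above all WT hearts (log2 fold change −0.20 ± 0.09, SE). Its means in the Dp3Tyb cohort were 419 ± 50.3 in WT and 398 ± 48.1 in Dp3Tyb. H1f2 had means of 229 ± 74.1 in WT and 244 ± 32.0 in Dp3Tyb, and of 233 ± 51.0 in WT and 251 ± 45.9 in Ts1Rhr (SD, n = 5 each).

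Among the H2A genes H2ac24 had means of 1569 ± 199 and 1446 ± 206 in WT and Dp3Tyb, and of 1873 ± 461 and 1556 ± 343 in WT and Ts1Rhr. Both differences are within the spread of the groups. H2ac25 was the steadiest, with group means of 246, 252, 243 and 249.7. H2ac18 and H2ac19 were too low for a direction: H2ac18 differed by 0.33 ± 0.85 in Dp3Tyb and H2ac19 by 0.45 ± 0.48 in Ts1Rhr (log2 ± SE).

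H2bc4 had log2 fold changes above 0 in both strains, of 0.24 ± 0.19 in Dp3Tyb and 0.23 ± 0.10 in Ts1Rhr (unadjusted p = 0.033 by limma, adjusted p 0.27 to 1.0 over alternatives). It was at 211, 212, 182, 237 and 188 in WT hearts of the Ts1Rhr cohort and at 267, 256, 241, 232 and 214 in Ts1Rhr hearts, so the groups overlap in a narrow range. Its Dp3Tyb value was 0.42 without WT replicate 5, 0.14 without WT replicate 2 and 0.16 without Dp3Tyb replicate 5. H2bc21 was at −0.14 ± 0.19 in Dp3Tyb, but at 0.028 without WT replicate 5, and at −0.18 ± 0.10 in Ts1Rhr. H2bc27 was at −0.16 ± 0.26 in Dp3Tyb, with the sign turned without WT replicate 3 (0.011) or Dp3Tyb replicate 5 (0.013), and H2bc6 was at −0.36 ± 0.24 in Ts1Rhr. H2bc23 had the widest error of the H2B genes, 0.33 ± 0.34 in Dp3Tyb and −1.10 ± 0.78 in Ts1Rhr, where it was 20.4, 9.76, 25.8, 0 and 28.5 against 32.4, 17.4, 23.3, 15.3 and 32.3 in WT. The Ts1Rhr value rests on the heart at 0 (−0.22 without it), and the Dp3Tyb value was 0.060 without WT replicate 4 and 0.14 without Dp3Tyb replicate 1. H4c9 was 48.6, 51.0, 53.7, 26.8 and 57.4 in WT hearts of the Ts1Rhr cohort and 39.5, 28.3, 48.0, 31.8 and 36.5 in Ts1Rhr hearts (−0.34 ± 0.22), while in the Dp3Tyb cohort it was 33.2 ± 10.9 in WT and 37.4 ± 8.01 in Dp3Tyb (SD, n = 5 each). The members with the highest and lowest differences between strains were H2bc23 (1.43 ± 0.92), H4c9 (0.56 ± 0.37) and H2ac18 (0.45 ± 1.06), and H2ac19 (−0.58 ± 1.17), H2ac11 (−0.38 ± 1.17) and H2bc27 (−0.11 ± 0.42), none of which passed. With 1 library left out at a time the difference of H2bc23 was between 0.55, without Ts1Rhr replicate 4, and 1.77, and over the other settings between 0.66 and 2.12. That of H4c9 was between 0.30, without WT replicate 5 of the Dp3Tyb cohort, and 0.75, and the sign of the remaining 4 turned for at least 1 library left out.

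The summed histone value, given with no test, was 6295 to 6944 in WT and 5698 to 6589 in Dp3Tyb hearts, and 6684 to 7828 in WT and 5822 to 6680 in Ts1Rhr hearts. Without H1f0, H1f10 and H2ac24 the group means were 1107, 1120, 1126 and 1124 in the order WT of the Dp3Tyb cohort, Dp3Tyb, WT of the Ts1Rhr cohort and Ts1Rhr. The remaining 68 genes thus summed to nearly the same value in all groups once the 3 members of highest mean were taken out. Each of those 3 had a lower mean in both strains than in their littermates. With only H1f0 and H1f10 taken out, the means were 2676 ± 265, 2567 ± 264, 2998 ± 443 and 2681 ± 360 in the same order (SD, n = 5 each).

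**Figure D4:**
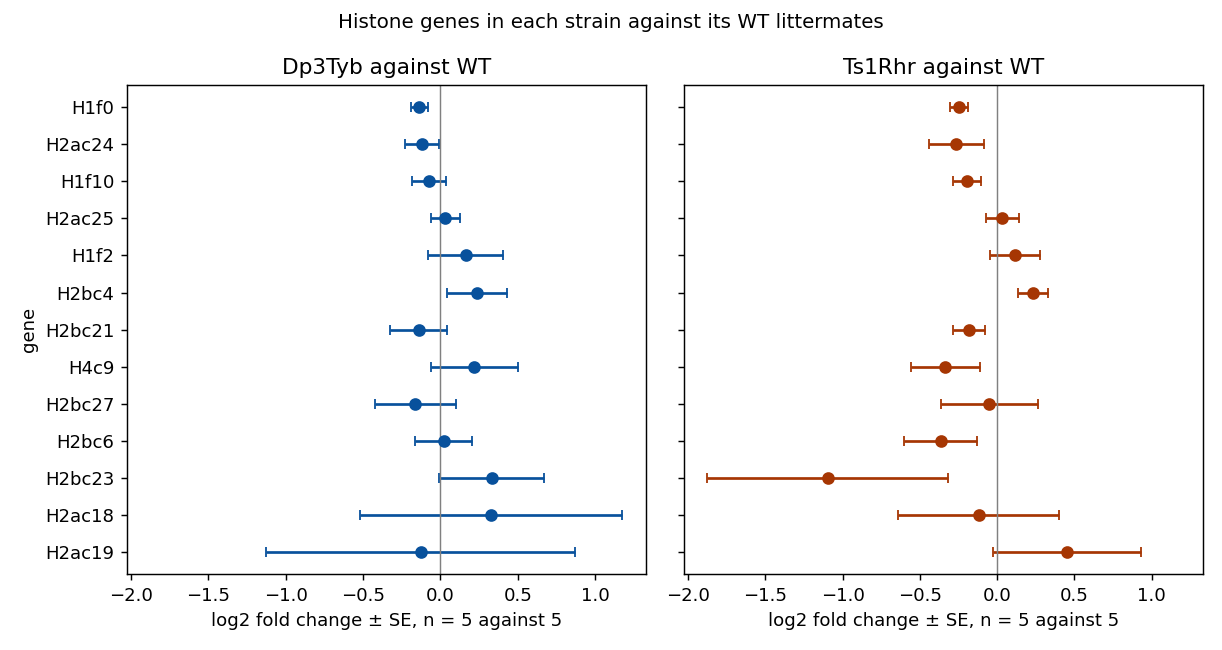
Log2 fold change ± SE (horizontal, limma on log2(value + 1), 5 libraries against 5) of 13 histone genes (vertical, in order of mean level) in Dp3Tyb (left) and Ts1Rhr (right) against WT littermates. H1f0 has the narrowest bars, at −0.14 and −0.24, and the lowest genes have the widest.

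Genes that make, process or carry histones gave no called change in a strain either. Of 9 replacement histones 0 were called in Dp3Tyb and in Ts1Rhr, with medians of −0.02 and 0.01. Of 16 genes of histone messenger RNA 3′ processing and turnover 0 were called, with medians of −0.04 and −0.06 and 13 and 11 lower. Zfp473 was the lowest of them in Dp3Tyb (−0.25 ± 0.26) and Casp8ap2, a component of the histone locus body, in Ts1Rhr (−0.30 ± 0.17). Of 15 histone chaperones 0 were called, with medians of −0.06 and −0.13.

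The highest chaperone in both strains was Chaf1b, a subunit of the chromatin assembly factor that deposits new H3 and H4. It lies in the extra segment of both alleles, and its log2 fold change was 0.52 ± 0.10 in Dp3Tyb and 0.41 ± 0.10 in Ts1Rhr (adjusted p 0.317 and 0.688 by limma within a cohort). It was the single chaperone called in the test among 4 groups (adjusted p 0.0241 by limma). Of 25 S phase genes, the phase in which replication-dependent histones are made, 0 were called, and the medians were −0.14 in Dp3Tyb, where 24 of 25 were lower, and −0.13 in Ts1Rhr, where 23 of 25 were lower. The lowest was the proliferation marker Mki67 in both (−0.22 ± 0.22 and −0.34 ± 0.20) and the highest was thymidine kinase Tk1 (0.08 ± 0.20 and 0.08 ± 0.15). Genes of a list do not vary independently, and no test of a list was made.

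Values of the markers of other tissues and cell types are given beside these. In Dp3Tyb 5 of 5 lung and foregut markers tested had log2 fold changes above 0 (median 2.03) and in Ts1Rhr 5 of 5 below 0 (median −1.76), with 0 called in each. Medians of the 10 cardiomyocyte markers were −0.15 and −0.03, of the 11 erythroid markers 0.18 and 0.26, and of the 6 macrophage markers 0.28 and 0.36. Only Hba-a1 and Hba-a2 of these were called in the test among 4 groups (adjusted p 0.00971 and 0.00325 by limma). Of the endothelial, fibroblast, epicardial, liver, nuclear long non-coding, ribosomal protein and mitochondrially encoded genes 0 were called in either strain. Their part in the histone values was not tested.

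Unlike genotype, the mitochondrial read share of the library went with the level of many histone genes. In a limma fit of 20 libraries with the 4 groups as terms, 9 of 14 members had a slope past an adjusted p of 0.05, beside 61.1% of all 15348 genes. The 4 members that were higher with the share compare with 29.6% of genes, and the 5 that were lower with 31.5%. The share called among histone genes was thus close to that of genes in general, and the median slope by limma was −0.02 for both. On whole reads the members' median was −0.087 by edgeR and −0.088 by DESeq2, beside −0.015 and −0.011 for all genes. A slope is a log2 change per doubling of the share. Share and depth were tied only in part, since the 2 libraries of highest share were the 2 shallowest while Ts1Rhr replicate 2 had a share of 13.1% at 17.0 M reads.

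The members that rose with the share were H2bc4 by 0.32 ± 0.05 (SE), H2ac24 by 0.30 ± 0.06, H2bc21 by 0.28 ± 0.06 and H2ac25 by 0.15 ± 0.05 (adjusted p 8.4e-06, 0.000292, 0.000201 and 0.00689 by limma). All are H2A or H2B genes, but so were most of the 14 members tested (5 H2A and 5 H2B). The H2A gene H2ac18 and the H2B gene H2bc27 fell. In the library at 19.5% H2bc4 was at 305 against 140.1 to 175 in the 4 other hearts of its group. H2bc21 was at 299 in that library and at 158 to 176 in the others of the group. H2ac24 was highest at 2603 in the WT heart of the Ts1Rhr cohort with a share of 17.2%. Each high value thus falls in a library of high share.

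Those that fell were H2ac18 (−1.28 ± 0.32), H2bc27 (−0.59 ± 0.11), H4c9 (−0.53 ± 0.10), H1f2 (−0.47 ± 0.06) and H1f10 (−0.13 ± 0.05), with adjusted p of 0.00186, 9.7e-05, 4.1e-05, 5.7e-07 and 0.0173 by limma. H1f2 was at 109 in the library at 19.5% and at 209 to 292 in the other 4 of its group, and H4c9 was at 14.7 there and at 33.6 to 42.6 in the others. H2ac18 was at 0 in that library and at 12.8 to 30.5 in the others, and without that library its slope was −0.60 with an adjusted p of 0.13 by limma. The slope of H1f10 also missed the threshold without that library (adjusted p 0.146). The slope of H1f0 did not pass (−0.02 ± 0.02, adjusted p 0.448 by limma), and neither did those of H2ac19 (0.85 ± 0.45, adjusted p 0.112), H2ac11, H2bc6 and H2bc23. Of the 4 members that rose 3 have a poly(A) signal near an annotated end, and so do 4 of the 5 that fell, so genes with the signal went both ways.

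The test on whole reads gave the same 9 members by edgeR (57.4% of genes called) and by DESeq2 (56.4%). Within the Dp3Tyb cohort alone 9 of 13 members were called (57.4%), and within the Ts1Rhr cohort alone 4 of 13 (37.9%): H2ac24, H2bc4, H1f2 and H2bc27. With total reads in place of the share 8 of 14 were called (52.0%), all of the 9 but H1f10. With both the share and total reads in the fit 3 of 14 were called for the share, H2ac24, H1f2 and H2bc27 (36.7%). Without the 7 libraries over 10% no member was called (0 of 13, 0.0200% of genes, 3 genes in all), and H2ac24, H2ac25, H2bc21 and H1f2 then had slopes of the opposite sign, at −0.35, −0.12, −0.60 and 0.12. With a correction for transcript length H2ac24 had a slope of 0.10 with an adjusted p of 0.202.

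**Figure D5:**
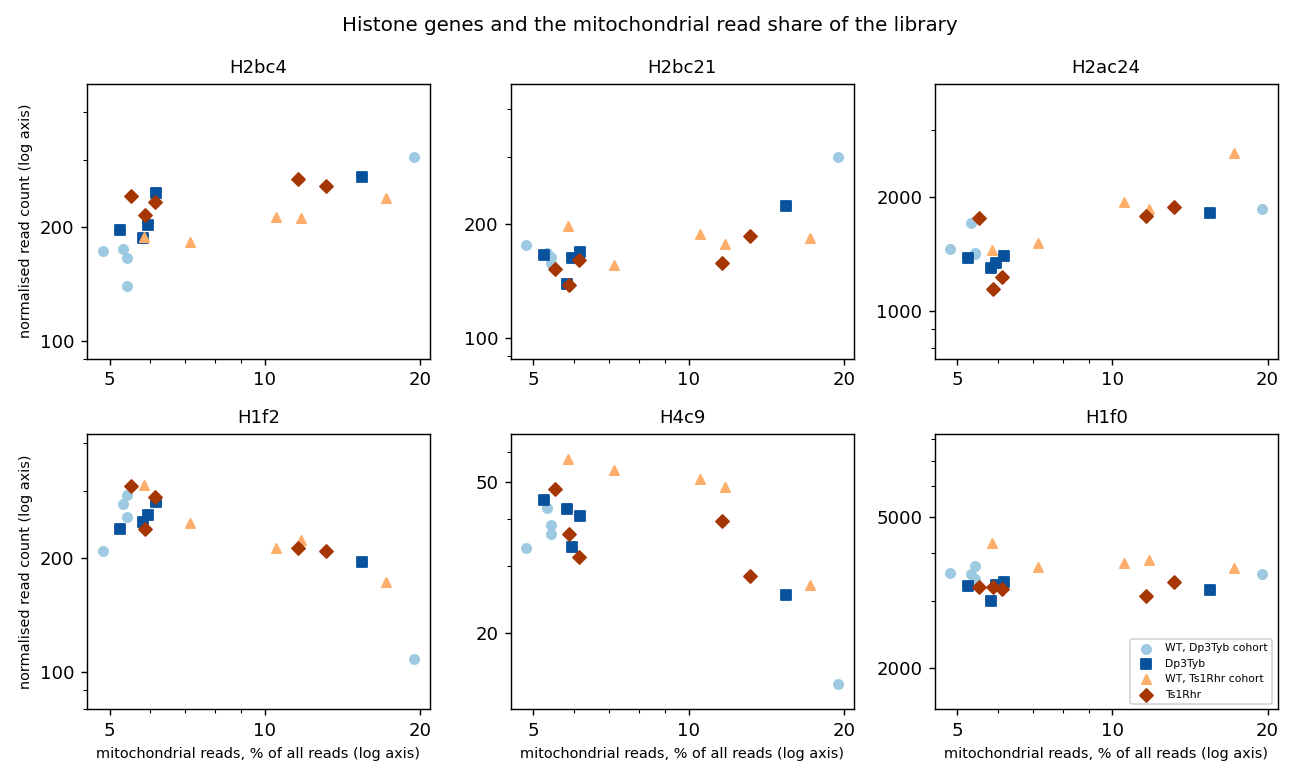
Normalised read count (vertical, log axis) of 6 histone genes against the mitochondrial read share of the library in % (horizontal, log axis), with 1 point per library and 4 groups of 5. H2bc4 and H2bc21 are highest (305 and 299) and H1f2 and H4c9 lowest (109 and 14.7) in the library at 19.5%, H2ac24 is highest (2603) in the library at 17.2%, and H1f0 spans 3007 to 4254 with no such order.

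H2ac23, the near-identical copy of H2ac24, was singled out after its values were seen. It was at 76.3 (26 reads), 64.3 (46 reads) and 38.3 (20 reads) in the 3 libraries of highest share, and between 0 and 10.1 in the other 17. Of these libraries 2 were the shallowest, and in the next shallowest, WT replicate 1 of the Dp3Tyb cohort, it was at 0. It fails the filter, and in the fit with no filter its slope was 1.90 ± 0.58 (adjusted p 0.0134 by limma). How the counting divided reads between both copies in these libraries was not tested. In that unfiltered fit 19 of 69 members were called, 5 higher and 14 lower, beside 35.8% of genes. The 9 members that this fit added below 0 had means of 1.13 to 4.48 over the 20 libraries, so each rests on few reads. On simulated data this test called more unchanged genes than its threshold allows, and no fit on whole reads was made without the filter, so these calls and that of H2ac23 are not described as changes.

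For the lists that follow, 29.6% of all genes rose with the share and 31.5% fell. Replacement histones outside the rule mostly had slopes below 0, 8 of 9, with a median of −0.07. Of the 9, 4 fell with the share, H2aj (−0.40 ± 0.07), H2az1 (−0.37 ± 0.03), H2ax (−0.36 ± 0.05) and the centromeric Cenpa (−0.30 ± 0.03), and Macroh2a2 rose (0.22 ± 0.05). Of 16 genes of histone messenger RNA processing and turnover 8 rose and 4 fell (median 0.06), among them Casp8ap2 (0.46 ± 0.04) and Npat (0.35 ± 0.03), which activates histone transcription, against Lsm11 (−0.38 ± 0.04), a part of the U7 particle that cuts behind the hairpin, and Slbp (−0.11 ± 0.03). Of 15 chaperones 8 rose and 3 fell (median 0.09), from Atrx at 0.54 ± 0.03 and Nasp at 0.51 ± 0.03 to Rbbp4 at −0.33 ± 0.02 and Daxx at −0.34 ± 0.04. S phase genes split evenly, with 9 higher and 9 lower of 25 (median −0.04), and ribosomal protein genes with 30 higher and 35 lower of 75. The 15 mitochondrially encoded genes tested all rose (median 1.40), as the share is made from them. Of 10 cardiomyocyte markers 6 rose and 3 fell, and of 11 erythroid markers 0 rose and 6 fell. Endothelial markers split 4 to 1 of 6 (higher to lower), fibroblast markers 1 to 3 of 6, epicardial markers 2 to 2 of 5, macrophage markers 1 to 4 of 6, lung and foregut markers 0 to 1 of 5, liver markers 0 to 0 of 2 and nuclear long non-coding RNAs 2 to 1 of 4, and their part in the slopes was not tested.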

How the data were processed

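RNA was extracted from 20 snap-frozen whole hearts and sequenced after poly(A) capture. The submitters' notes name Trimmomatic (0.36), STAR (2.5.2a), RSEM (1.2.31), DESeq2 and GRCm38. The authors deposited 1 table of a normalised signal, whole reads divided by a size factor, with 48795 genes and 20 columns. In each library 100% of values were whole multiples of 1 step (tolerance 0.001), so whole reads could be recovered. Use of strand in counting is not given in the sources used here. The reads are amplified without molecular identifiers, so a spread expected from counting covers counting error only. Depth was 6.60 to 19.6 M reads.

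Groups were taken from the genotype labels. The series describes separate embryonic hearts, so p-values measure the spread between hearts. Symbols and positions came from GENCODE vM39 (44565 identifiers matched), promoters from RefSeq. Values were tested as log2(value + 1) with limma (3.58.1, R 4.3.3; trended, robust), 2-sided with Benjamini-Hochberg adjustment, for genes at 10 or more in at least 5 libraries fitted. A log2 fold change on this scale understates the change of low genes. Fits were Dp3Tyb and Ts1Rhr each against WT, the interaction, an F test of 4 groups, and a slope on the log2 mitochondrial share. Shared sequence was counted in 75-base words. Alternatives were edgeR (4.0.16), DESeq2 (1.42.0), scaling, pseudocounts, filters, length, covariates and libraries left out. On simulated data the slope test by limma called more unchanged genes than its threshold allows and more than edgeR or DESeq2 did, while edgeR stayed nearest to its threshold.

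Named genes were the called members, the 5 highest by mean in each class, the 3 highest and 3 lowest tested members of each fit, H1f0 and H1f10, and called or extreme genes of 14 lists. H2ac23 in the slope was added after its values were seen. The members and lists were chosen with earlier results of these data known.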

Additional observations from a re-analysis of the deposited data

Results flagged for a closer look

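In groups of 5 libraries a value was singled out where its gap to the nearest other value was over 0.71 of the range of the group (Dixon). This held for 12 of 68 groups over 17 quantities, where chance gives about 1 in 20, and 2 of the 12 were on the mitochondrial share itself. Of the 10 on other quantities, 6 were values of libraries with over 10% mitochondrial reads. The share itself stood apart in WT replicate 5 of the Dp3Tyb cohort (19.5%, others at most 5.42%) and in Dp3Tyb replicate 5 (15.5%, others at most 6.15%). In WT replicate 5 of the Dp3Tyb cohort H2bc4 was high at 305 (others at most 175) and H2bc21 at 299 (others at most 176). In Dp3Tyb replicate 5 H2ac24 was high at 1808 (others at most 1399) and H2ac25 at 299 (others at most 249.2), and H2bc27 was low at 16.8 (others at least 30.4). H4c9 was low at 26.8 in WT replicate 4 of the Ts1Rhr cohort (others at least 48.6). The part of the share or of depth in these values was not tested.

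The 4 other values were in libraries of lower share. H2bc6 was low at 15.3 in Dp3Tyb replicate 1 (others at least 19.5), H2bc23 low at 5.23 in WT replicate 4 of the Dp3Tyb cohort (others at least 13.9), and H2ac11 high at 15.1 in WT replicate 1 of that cohort (others at most 9.90). Histone reads per M reads were highest at 511 in WT replicate 5 of the Ts1Rhr cohort (others at most 452), the library in which H1f0 was also highest at 4254.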

How the results depend on the processing

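No paired analysis was possible because replicate numbers only follow the listing order and tie no heart to another. With 5 hearts a group, small changes of the lower genes cannot be seen. Members called in a strain or between strains stayed at 0 under all alternatives run except DESeq2 in Ts1Rhr (1, H1f0). In the test among 4 groups 1 member, H1f0, was called with DESeq2, with the length correction and with the mitochondrial share as a covariate, and 0 otherwise. The members' median moved in Dp3Tyb from 0.022 to −0.076 at a minimum of 50 and in Ts1Rhr from −0.18 to −0.088 with no filter. For the slope 19 members were called with no filter, 4 in the Ts1Rhr cohort alone, 3 with total reads added and 0 without libraries over 10%, and the median moved from −0.02 to −0.28 with no filter, 0.15 at a minimum of 50, −0.35 without libraries over 10% and 0.071 in the Dp3Tyb cohort alone. Some of these settings test other members or libraries, and beyond that the cause was not tested.

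Signs turned in these cases. H2ac18 in Dp3Tyb was −0.33 with edgeR, −0.27 with DESeq2, −0.030 at a pseudocount of 10 and −0.34 without libraries over 10%, and its difference between strains was −0.31, −0.25 and −1.12 with edgeR, DESeq2 and without those libraries. With the share as a covariate H1f2 in Ts1Rhr was −0.017 and the difference of H2bc27 0.10. The slope of H1f0 was 0.019 with the length correction and 0.013 with no group terms. Without libraries over 10% the slopes of H2ac24, H2ac25, H2bc21 and H1f2 were −0.35, −0.12, −0.60 and 0.12. Leaving out 1 library kept 0 calls in all genotype tests and 7 to 9 in the slope, and gave medians from −0.05 to 0.06 (Dp3Tyb), −0.25 to −0.15 (Ts1Rhr), 0.04 to 0.13 (difference) and −0.08 to 0.0066 (slope). It turned signs of H2ac18 (−0.57 to 0.67), H2bc21 (−0.24 to 0.028) and H2bc27 (−0.31 to 0.013) in Dp3Tyb, and of the differences of H2ac11 (−0.84 to 0.27), H2ac18 (−0.45 to 0.79), H2ac19 (−1.30 to 0.11) and H2bc27 (−0.32 to 0.076).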
